A study of Mus musculus with 12 samples.

Results

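The genes described here are 10 transcripts of the urothelium, the epithelium that lines the renal pelvis, ureter and bladder: the 5 uroplakins Upk1a, Upk1b, Upk2, Upk3a and Upk3b, the 4 keratins Krt5, Krt7, Krt19 and Krt20, and the small proline-rich protein Sprr2f. They were picked by symbol, and each of the 10 matched a gene symbol among the 36186 genes with deposited counts. All 10 had enough counts to be tested in every comparison.

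RNA was sequenced from whole kidneys of mouse embryos of stage E18.5, close to birth, on a mixed 129/CD1 background, in 12 libraries of 4 genotypes with 3 libraries each. The genotypes were wild type, Hoxa9,10,11-/- Hoxc9,10,11+/- (Hoxa-/- Hoxc+/- here), Hoxa9,10,11+/- Hoxc9,10,11-/- (Hoxa+/- Hoxc-/-) and Hoxa9,10,11-/- Hoxc9,10,11-/- (Hoxa-/- Hoxc-/-, the double homozygous mutants). The mutant alleles are frameshifts, made in the Hoxc genes by small deletions within first exons. The study's text describes the sequenced double homozygous kidneys as keeping 1 or both wild type copies of Hoxa11, whereas the labels give Hoxa11-/-, and neither says which library carried which allele. Counts on genes ranged from 28616877 to 47067903 per library, with a median of 39328488. The Hoxa+/- Hoxc-/- libraries came from another sequencing run than the other 9, so that run and genotype cannot be told apart for that group. The labels do not state whether the 3 libraries of a group came from separate embryos, so p-values measure the spread between these libraries.

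Urothelium is a stratified epithelium with basal, intermediate and superficial (umbrella) cells. Umbrella cells cover their luminal face with plaques of uroplakins, which leave the endoplasmic reticulum as pairs: Upk1a with Upk2, and Upk1b with Upk3a or Upk3b. In the kidney this lining is limited to the pelvis and papilla, so that a whole kidney sample holds little of it, and Krt7 and Krt19 are also made by collecting duct cells.

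The targeted genes were examined first. Hoxa9 was at 24.3, 24.4 and 26.4 CPM (counts scaled to library size with TMM factors) in the wild type libraries and 26.6, 25.9 and 23.9 CPM in the Hoxa-/- Hoxc-/- libraries. Hoxc10 was at 50.1, 58.9 and 66.9 CPM in wild type and 37.9, 29.1 and 35.7 CPM in Hoxa-/- Hoxc-/-. Of the 6 targeted genes, 2 passed the threshold as lower in Hoxa-/- Hoxc-/- than in wild type, Hoxa10 by a log2 fold change of -0.49 and Hoxc10 by -0.78. Because a frameshift can leave the transcript in place, these levels check the labels little. Hoxa-/- Hoxc+/- library 20, the library with the fewest counts, stood apart: Hoxc10 was at 119.6 CPM and Hoxc9 at 32.4 CPM, against at most 66.9 and 15.6 CPM in the other 11 libraries, and results of its group are given with and without it where it decides them. By Xist and Y-linked transcripts, 5 libraries were female (Hoxa-/- Hoxc+/- 31 and 33, Hoxa+/- Hoxc-/- 110, Hoxa-/- Hoxc-/- 27 and 29), and all 3 wild type libraries were male. Among the female libraries Xist was at 190, 253 and 336 CPM in the first 2 genotypes and at 72.8 and 60.0 CPM in Hoxa-/- Hoxc-/-. As a covariate it thus does not stand for sex alone.

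In wild type kidneys the members spanned a wide range of levels. To compare genes, CPM were divided by the exon length of each gene in kilobases (CPM per kb, mean ± SD, n = 3). Krt19 was highest at 26.8 ± 4.46 CPM per kb, an order that rests on the length given to Krt7, which covers 5 transcripts and lowers its CPM per kb. In CPM, without length, Krt7 was highest at 140.02 against 49.7 for Krt19. Krt7, at 19.9 ± 1.21, Upk3a, at 19.0 ± 3.98, and Sprr2f, at 17.6 ± 5.37, followed within their SDs of each other. Upk1b, Upk1a and Upk2 formed a second step at 7.998 ± 1.32, 7.60 ± 1.56 and 6.70 ± 1.22 CPM per kb, again within their SDs. Upk3b (1.42 ± 0.179), Krt5 (0.997 ± 0.211) and Krt20 (0.574 ± 0.133) were lowest. The transcripts of the plaque were thus present in these kidneys, with Upk3a the most abundant uroplakin. Of 4 bladder and hindgut position genes, Hoxa13 and Cdx2 had at most 3 counts in any library. Hoxd13, the most abundant of them, was at 0.159, 0.301 and 0.396 CPM in wild type and at most 0.105 CPM in Hoxa-/- Hoxc-/-, too few counts to be tested there.

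Across the 4 comparisons the members did not move as 1 block. In Hoxa-/- Hoxc-/- against wild type, 3 of 10 members were higher past an adjusted p of 0.05 (Sprr2f, Krt20 and Upk3b), against 6.31% of all 15839 genes tested, or 13.7% in either direction. The study had already listed Sprr2f as higher in its double homozygous mutants, so the Sprr2f call repeats that result. No member was lower in edgeR, where 7.4% of all genes were, and the lower count was 1 with DESeq2 (Upk1a). At an unadjusted p below 0.05 the count was 4 of 10, with 32.4% over all genes. Scaling by library size alone moved the split of all called genes from 999 higher and 1172 lower to 742 and 1649, and the same 3 members were called. Upk3b and Krt20 both lost their calls without wild type 37 or without wild type 55, and Upk3b also under some of the other alternatives given below. The median log2 fold change of the 10 members was 0.41, beside -0.01 for all genes, with 7 values above 0 and 3 below. The 3 libraries of each group did not overlap for 4 members, 3 above wild type and 1 below (Upk1a), where 38% of all genes did not overlap.

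The groups with fewer mutant alleles gave no call among the members in edgeR. In Hoxa-/- Hoxc+/- against wild type the edgeR count was 0 of 10 members and 0.0% of 15789 genes. At an unadjusted p below 0.05 it was 1 member (Krt20) and 360 genes (2.28%), and DESeq2 called 18 genes and no member. Without library 20 of that group edgeR called 8 genes and no member. The members' median log2 fold change was -0.05, beside 0.03 for all genes, and only Krt20 had libraries that did not overlap, against 8.33% of all genes. In Hoxa+/- Hoxc-/- against wild type, 0 of 10 members passed in edgeR, where 2.36% of 15902 genes did, 0.836% as higher and 1.53% as lower. There 1 member, Krt20, had an unadjusted p below 0.05 (21.1% of all genes), was called by DESeq2 (adjusted p = 0.0140) and did not overlap wild type, against 26.6% of all genes. The members' median was -0.31, beside 0.01 for all genes, with 8 of 10 values below 0.

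In Hoxa-/- Hoxc-/- against Hoxa-/- Hoxc+/-, groups that differ in Hoxc alleles and, by the study's text, may differ in Hoxa11 too, 0 of 10 members and 0.0% of 15764 genes passed in edgeR. At an unadjusted p below 0.05 there were 2 members and 1787 genes (11.3%), and DESeq2 called the same number of members, Sprr2f and Upk3b, among 489 genes. Without Hoxa-/- Hoxc+/- library 20 edgeR called 687 genes and 1 member, Sprr2f. Sprr2f and Upk3b were also the 2 members that lay wholly above Hoxa-/- Hoxc+/-, while Upk1a lay wholly below, where 22.8% of all genes did not overlap. The members' median log2 fold change was 0.56, beside -0.01 for all genes. The 3 comparisons with wild type use the same wild type libraries, so their values are set side by side and were not tested against each other.

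**Figure D1:**
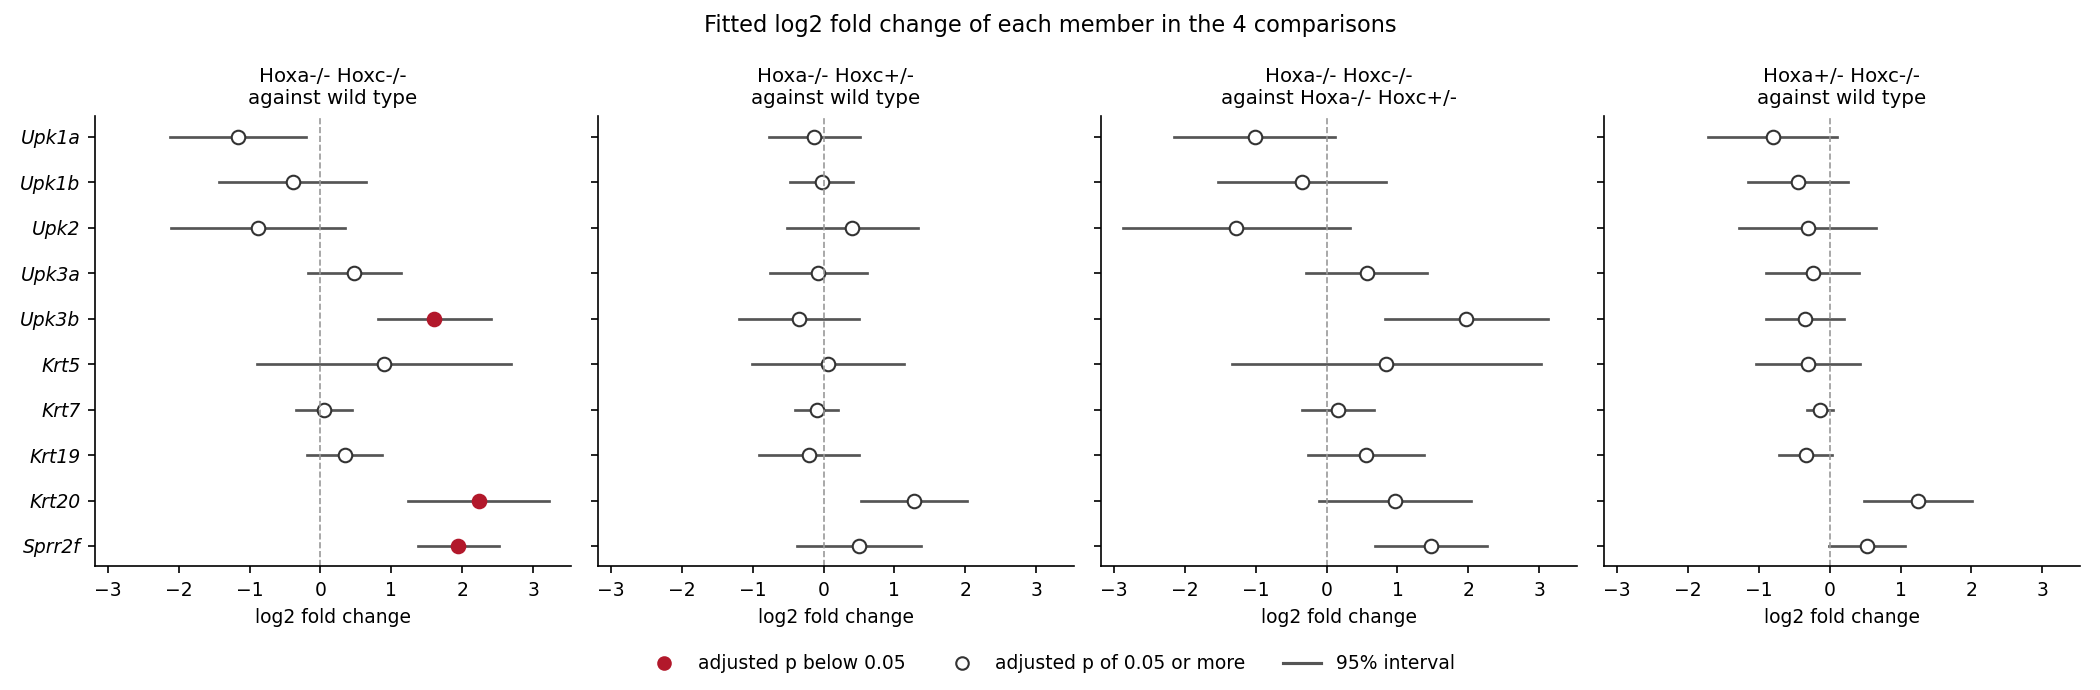
Fitted log2 fold change (x axis) of each member (y axis) in the 4 comparisons, with 95% intervals, from 3 libraries per group. Filled points passed an adjusted p of 0.05, which holds for Upk3b, Krt20 and Sprr2f in the Hoxa-/- Hoxc-/- against wild type panel, and open points did not.

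Upk1a and Upk1b are the tetraspanin uroplakins, with 4 membrane spans each, and each chaperones a single-span partner. Upk1a (Entrez Gene 109637, mm10 chr7:30603092-30612734, minus strand) was at 8.37, 11.3 and 12.7 CPM in wild type and at 1.97, 7.33 and 5.19 CPM in Hoxa-/- Hoxc-/- (libraries 24, 27 and 29). All 3 double homozygous libraries lay below the lowest wild type library, and number 24 was the lowest of all 12. The log2 fold change was -1.16 (SE 0.411, 95% interval -2.12 to -0.21), which did not pass the threshold in edgeR (adjusted p = 0.0975). DESeq2 passed it (adjusted p = 0.0162), and the adjusted p of the other alternatives reached 0.183, or 0.244 with a library left out. Upk1a in Hoxa-/- Hoxc+/- was at 13.2, 8.57 and 7.80 CPM, and in Hoxa+/- Hoxc-/- at 6.01, 9.499 and 2.87 CPM. Both of these groups overlapped wild type, with log2 fold changes of -0.13 and -0.81.

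Upk1b (Entrez Gene 22268, chr16:38773182-38800203, minus strand) ranged from 14.6 to 19.8 CPM in wild type and from 4.59 to 20.9 CPM in Hoxa-/- Hoxc-/-. The double homozygous libraries thus held both the lowest and the highest Upk1b level of the 12. The log2 fold change was -0.39 (95% interval -1.43 to 0.64), and without library 24 it was 0.0072. In a bulk sample fewer urothelial cells and less RNA per cell cannot be told apart, here or for any member below.

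Upk2, Upk3a and Upk3b are the single-span partners. Upk2 (Entrez Gene 22269, chr9:44452715-44454767, minus strand), the partner of Upk1a, was at 5.80, 8.39 and 7.57 CPM in wild type and at 1.05, 6.79 and 3.98 CPM in Hoxa-/- Hoxc-/-. The groups overlapped through library 27 alone, and the log2 fold change was -0.88 (SE 0.532, adjusted p = 0.284). Hoxa-/- Hoxc+/- library 20 had the highest Upk2 level of the 12, 15.4 CPM, with 7.41 and 5.98 CPM in the other 2 libraries of its group.

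Upk3a (Entrez Gene 22270, chr15:85017141-85022560, plus strand), the main partner of Upk1b, was at 16.3, 25.0 and 20.9 CPM in wild type and at 17.0, 37.2 and 32.5 CPM in Hoxa-/- Hoxc-/-. Libraries 27 and 29 exceeded every wild type library, and library 24 lay within the wild type range. The log2 fold change was 0.48 (SE 0.282, adjusted p = 0.274). The other genotypes ranged from 12.9 to 26.7 CPM and overlapped wild type.

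Upk3b (Entrez Gene 100647, chr5:136038496-136044993, plus strand), which can replace Upk3a beside Upk1b and is also made by mesothelial cells, was at 4.48, 5.71 and 4.88 CPM in wild type. In Hoxa-/- Hoxc-/- it was at 8.31, 23.5 and 14.2 CPM. All 3 double homozygous libraries were above every library of the other 3 genotypes, whose highest value was 5.88 CPM. The share of all genes with such a separation was not counted. Upk3b rose by a log2 fold change of 1.61 (SE 0.344, 95% interval 0.81 to 2.40, adjusted p = 0.0249), a ratio of mean CPM of 3.05. The call was lost without wild type 37 (adjusted p = 0.0776) or wild type 55 (0.0894), while the log2 fold change stayed between 1.16 and 1.90 over the 6 fits that left out 1 library. It was also lost with Xist as a covariate in a fit of all 12 libraries (log2 fold change 0.98, adjusted p = 0.0851), in the fit of 9 libraries (0.0704) and with limma (0.0658). Library 24, at 8.31 CPM, was male like all wild type libraries, while the other double homozygous libraries were female. The part of sex was not tested beyond the Xist covariate. Against Hoxa-/- Hoxc+/-, where Upk3b was at 2.22, 5.88 and 3.66 CPM, the log2 fold change was 1.97 (SE 0.483, adjusted p = 0.249).

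**Figure D2:**
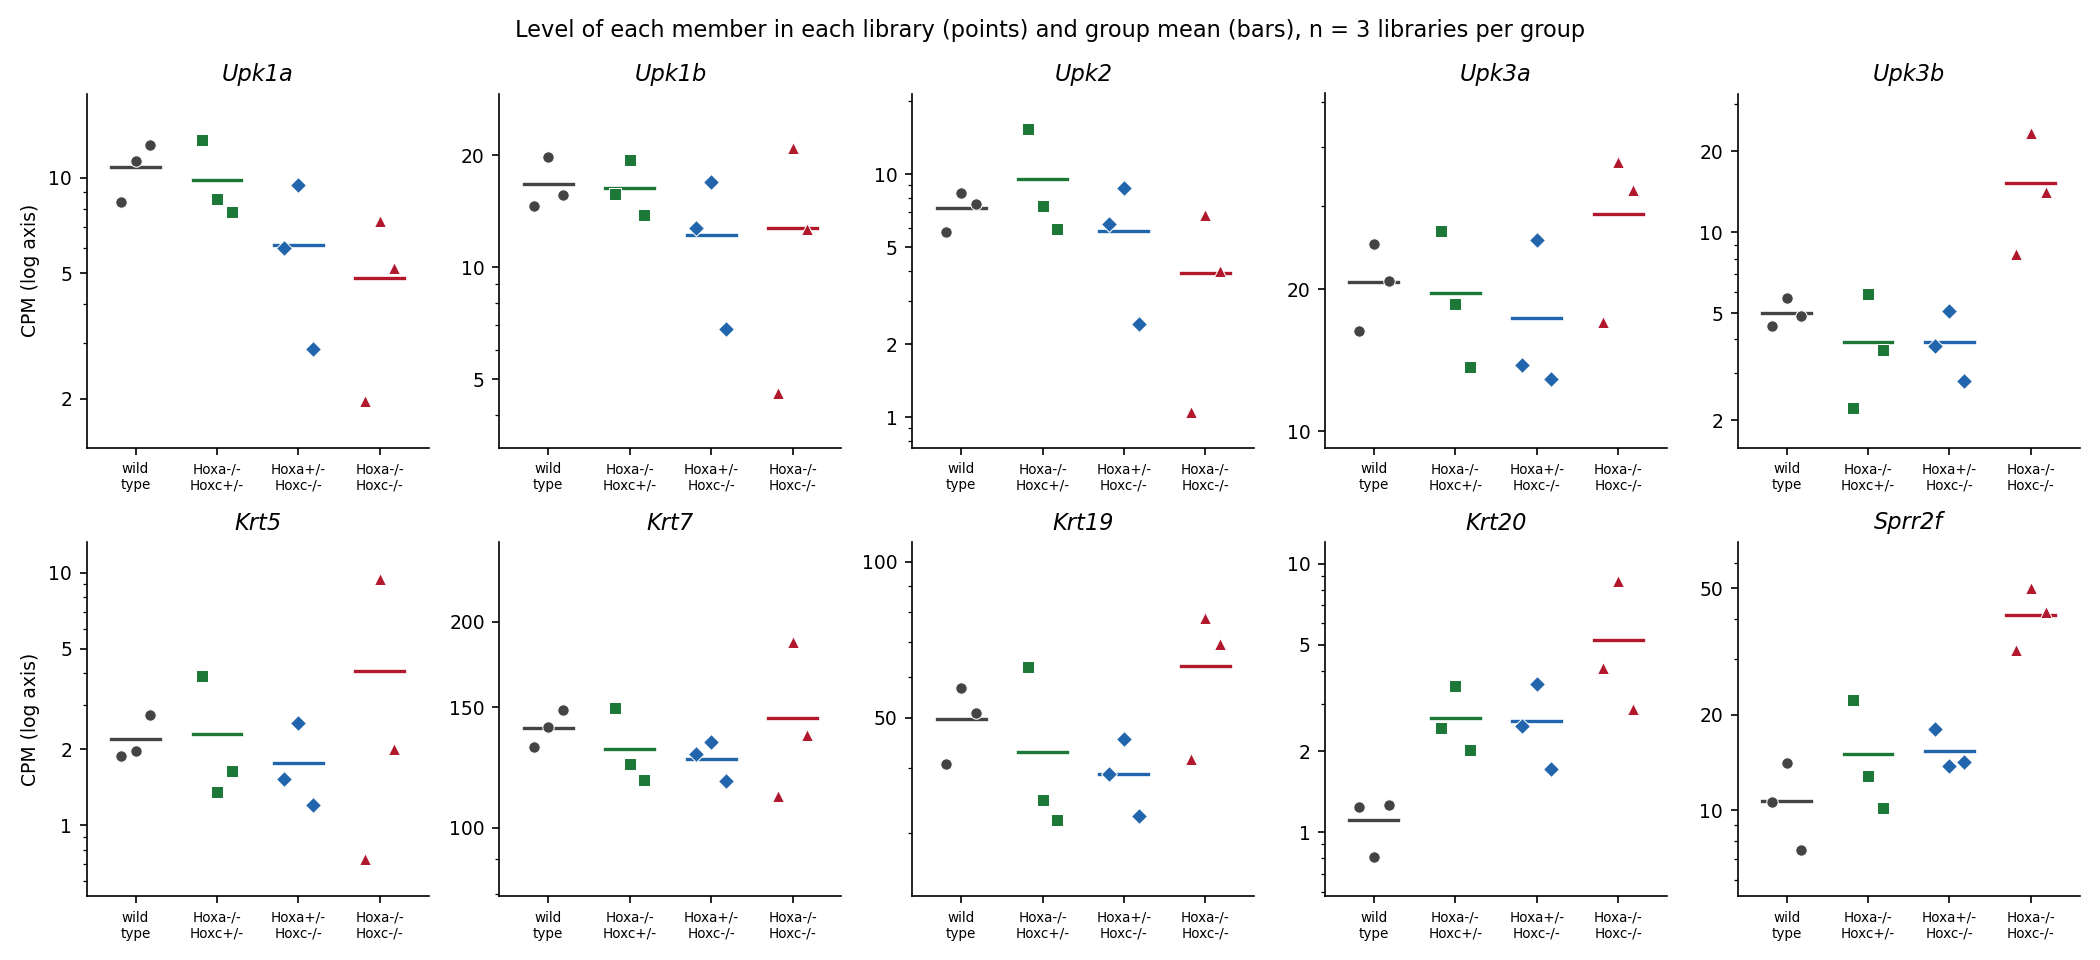
CPM of each member on a log axis in each of the 12 libraries (points) and mean of each group of 3 libraries (bars). The Hoxa-/- Hoxc-/- libraries sit above all wild type libraries for Upk3b, Krt20 and Sprr2f, below them for Upk1a, and overlap them for the other 6 members.

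In make-up, all 5 uroplakin shares of the Hoxa-/- Hoxc-/- libraries lay outside the wild type range, while the summed level overlapped. The summed level of the 5 uroplakins was 49.6, 70.3 and 61.7 CPM in wild type and 32.95, 95.7 and 68.5 CPM in Hoxa-/- Hoxc-/-, and the groups overlapped. As shares of the summed CPM per kb, Upk1a and Upk2, which pair with each other, together took 32.7%, 31.6% and 36.3% in the wild type libraries. They took 10.5%, 18.4% and 15.5% in the Hoxa-/- Hoxc-/- libraries, all below every library of the other genotypes, of which the Hoxa+/- Hoxc-/- library labelled AhCk_115 was lowest at 21.1%. Upk3a alone took 43.4% to 46.0% in wild type and 54.8% to 69.3% in Hoxa-/- Hoxc-/-, where it overlapped only AhCk_115 (58.8%). Upk3b took 3.14% to 3.68% in wild type and 8.51% to 10.7% in Hoxa-/- Hoxc-/-, with no overlap with any other genotype. Upk1b, the partner of Upk3a and Upk3b, took 20.3%, 19.1% and 17.1% in wild type and 9.76%, 16.1% and 12.8% in Hoxa-/- Hoxc-/-, where it overlapped only Hoxa-/- Hoxc+/- 20 (13.5%). The ratio of Upk3a to Upk2 in CPM per kb was 2.79, 2.95 and 2.73 in wild type and 16.1, 5.42 and 8.10 in Hoxa-/- Hoxc-/-. In the other mutant genotypes it ranged from 1.72 to 5.32, and the highest of these was AhCk_115. Such a ratio does not depend on how libraries are scaled, and its length term is the same in all libraries. The shares sum to a whole, so they are not independent of each other, and are given as a description with no test.

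**Figure D3:**
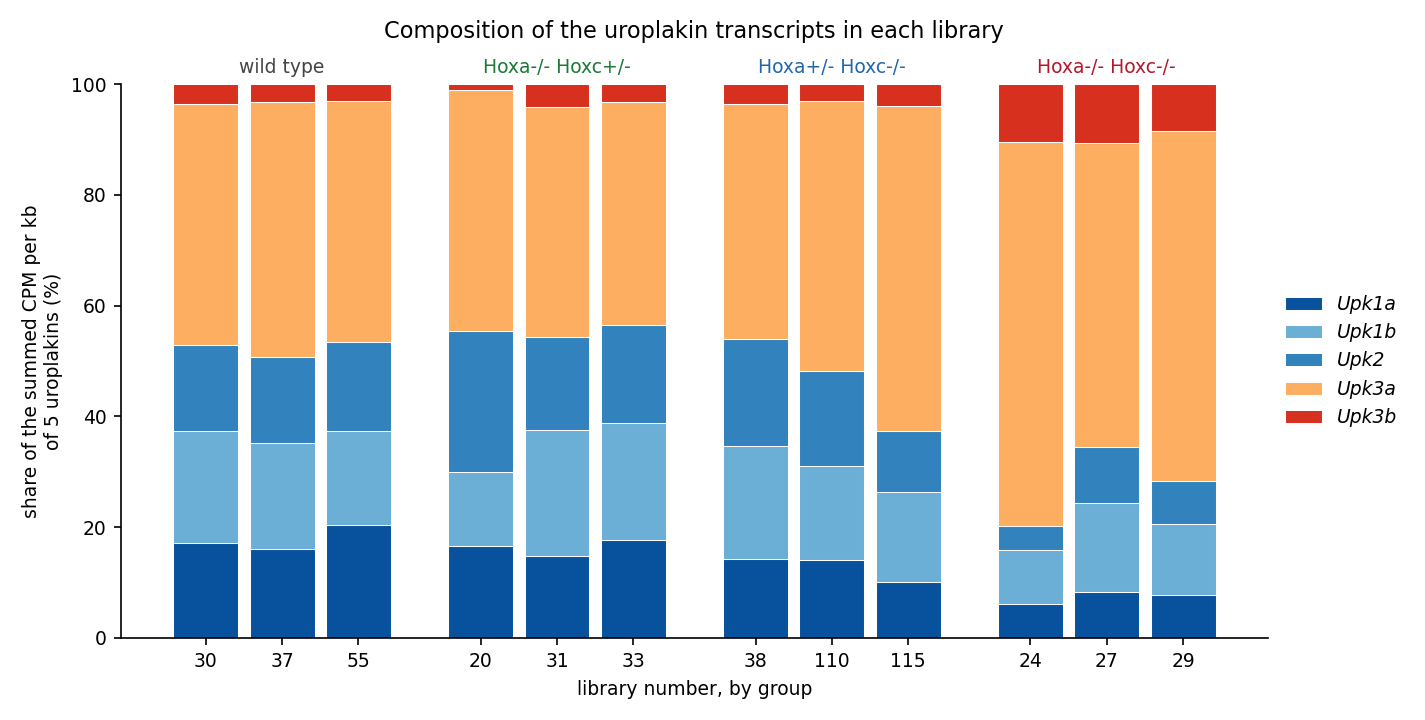
Share of each uroplakin (y axis, percent of the summed CPM per kb of the 5 uroplakins) in each of the 12 libraries, grouped by genotype. Upk1a, Upk1b and Upk2 take smaller shares, and Upk3a and Upk3b larger ones, in the 3 Hoxa-/- Hoxc-/- libraries than in the 3 wild type libraries.

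Of the keratins, Krt5 marks basal cells, Krt7 and Krt19 are found through the layers and in ducts, and Krt20 marks mature umbrella cells. Krt5 (Entrez Gene 110308, chr15:101707069-101712905, minus strand) was at 1.88, 1.97 and 2.72 CPM in wild type and at 0.734, 9.45 and 2.00 CPM in Hoxa-/- Hoxc-/-. The double homozygous libraries again held the lowest and the highest value of the 12, and the log2 fold change of 0.89 (95% interval -0.90 to 2.68) turned to -0.68 without library 27. Of the 75-base windows of the Krt5 transcript, 7.77% are shared with other genes, among them Krt6a and Krt6b. The authors removed reads that map to more than 1 place, so the Krt5 level is uncertain. Krt5 also shares 129 exon bases with Gm44323 on the opposite strand.

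Krt7 (Entrez Gene 110310, chr15:101412403-101427806, plus strand) had the smallest relative spread over the 12 libraries, at 131, 140.4 and 148 CPM in wild type and 111, 187 and 136 CPM in Hoxa-/- Hoxc-/-. The groups overlapped, with a log2 fold change of 0.05 (95% interval -0.35 to 0.44) that was -0.016 when libraries were scaled by size alone and -0.18 without library 27. Krt7 shares 77 exon bases with Gm671 on the opposite strand. Krt19 (Entrez Gene 16669, chr11:100140810-100145926, minus strand) was at 40.8, 57.2 and 51.0 CPM in wild type and at 41.6, 78.0 and 69.5 CPM in Hoxa-/- Hoxc-/-, with a log2 fold change of 0.34 (95% interval -0.19 to 0.87). Libraries 27 and 29 were above and library 24 was within the wild type range, the same order as for Upk3a.

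Krt20 (Entrez Gene 66809, chr11:99428385-99438153, minus strand) was the keratin that differed. It was at 1.24, 0.809 and 1.26 CPM in wild type, or 47, 35 and 51 counts, and at 4.09, 8.61 and 2.88 CPM in Hoxa-/- Hoxc-/-. In Hoxa-/- Hoxc+/- it was at 2.45, 3.51 and 2.03 CPM, and in Hoxa+/- Hoxc-/- at 2.49, 3.56 and 1.72 CPM. All 9 mutant libraries were above all 3 wild type libraries, while the 3 mutant genotypes overlapped each other. How many of all genes do so was not counted. Taken singly, Hoxa-/- Hoxc-/-, Hoxa-/- Hoxc+/- and Hoxa+/- Hoxc-/- did not overlap wild type for 38%, 8.33% and 26.6% of all genes. Krt20 rose in Hoxa-/- Hoxc-/- by a log2 fold change of 2.23 (SE 0.429, 95% interval 1.24 to 3.22, adjusted p = 0.0183), a ratio of mean CPM of 4.70. That call was lost without wild type 37 (adjusted p = 0.0762) or wild type 55 (0.0625) and kept in the 8 alternatives that left out no library of the comparison. In Hoxa-/- Hoxc+/- the log2 fold change was 1.27 (SE 0.308) with an adjusted p of 1.00, and in Hoxa+/- Hoxc-/- it was 1.24 (SE 0.325) with an adjusted p of 0.0977, neither past the threshold in edgeR. All wild type libraries were male. The 4 male mutant libraries had 2.45, 2.49, 1.72 and 4.09 CPM, and the female ones 3.51, 2.03, 3.56, 8.61 and 2.88 CPM. The part of sex was not tested beyond the Xist covariate.

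Sprr2f (Entrez Gene 20760, chr3:92365187-92366442, plus strand) belongs to the small proline-rich proteins, which are cross-linked into the envelope of squamous cells. It was at 10.6, 14.04 and 7.498 CPM in wild type, at 22.2, 12.8 and 10.1 CPM in Hoxa-/- Hoxc+/-, and at 18.0, 13.7 and 14.2 CPM in Hoxa+/- Hoxc-/-. In Hoxa-/- Hoxc-/- it was at 31.8, 49.95 and 42.0 CPM. Every double homozygous library was above every library of the other 3 genotypes, which overlapped each other. The share of all genes with such a separation was not counted. Sprr2f rose by a log2 fold change of 1.94 (SE 0.247, 95% interval 1.37 to 2.52, adjusted p = 0.00491), a ratio of mean CPM of 3.86, and kept its call in the 6 fits that left out 1 library and in the other 8 alternatives. Against Hoxa-/- Hoxc+/- the log2 fold change was 1.47 (SE 0.331, adjusted p = 0.224), and it passed without library 20 of that group (log2 fold change 1.87, adjusted p = 0.0156).

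Its relatives had few counts. Of the other 10 Sprr2 genes, Sprr2b, Sprr2e, Sprr2h and Sprr2k were at 0 in all 12 libraries, and 8 of 10 had at most 3 counts in any library. The authors removed reads that map to more than 1 place, and shared windows were not examined for these relatives. Their levels, those of Sprr2a3 included, are therefore uncertain. Sprr2g, the most abundant of them over the 12 libraries although below Sprr2a3 in wild type (means of 0.524 and 0.6003 CPM), was at 0.265, 0.763 and 0.544 CPM in wild type and at 1.21, 2.63 and 2.69 CPM in Hoxa-/- Hoxc-/-, without overlap. It rose by a log2 fold change of 2.03 (SE 0.453, adjusted p = 0.0280), close to the value of Sprr2f. Sprr2a3 had 1, 2 and 2 counts in Hoxa+/- Hoxc-/- and 18, 38 and 18 in wild type, and fell in that comparison by 3.88 on the log2 scale (adjusted p = 0.0182), where run and genotype cannot be told apart. No 75-base window of Sprr2f is shared exactly with another gene.

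The 3 members that rose have RefSeq start sites, and the 250 bases before each start (GRCm38.p6, the RefSeq name of mm10) are shown for the members called higher in Hoxa-/- Hoxc-/-. Capitals mark motif matches, the gene's strand is printed 5′ to 3′, and both strands were searched. Such windows were found for 7 of the 10 members.
Sprr2f, chr3:92364937-92365186, plus strand: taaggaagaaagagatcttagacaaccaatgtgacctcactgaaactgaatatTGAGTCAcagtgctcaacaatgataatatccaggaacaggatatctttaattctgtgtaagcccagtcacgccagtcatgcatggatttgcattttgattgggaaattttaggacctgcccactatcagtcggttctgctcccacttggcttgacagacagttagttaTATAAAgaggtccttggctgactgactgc
Krt20, chr11:99438154-99438403, minus strand: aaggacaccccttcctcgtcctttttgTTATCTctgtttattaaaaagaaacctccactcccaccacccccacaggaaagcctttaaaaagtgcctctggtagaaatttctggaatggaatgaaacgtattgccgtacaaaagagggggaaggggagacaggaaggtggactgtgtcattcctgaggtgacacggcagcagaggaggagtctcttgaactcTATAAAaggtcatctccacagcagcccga
Upk3b, chr5:136038246-136038495, plus strand: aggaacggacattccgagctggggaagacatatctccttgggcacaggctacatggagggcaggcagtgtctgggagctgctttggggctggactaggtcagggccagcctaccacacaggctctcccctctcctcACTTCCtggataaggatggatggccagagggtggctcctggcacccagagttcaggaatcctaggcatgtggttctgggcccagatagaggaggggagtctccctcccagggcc
Sprr2f and Krt20 each carry a TATA box (TATAAA) 29 to 24 bases before the start, a motif held by 12.4% of 32851 such windows. Sprr2f also has a match to the AP-1 motif (TGANTCA), 197 to 191 bases before its start, found in 6.75% of windows. On the other strand Krt20 has a GATA match (AGATAA) 223 to 218 bases before its start, found in 9.99%, and Upk3b an ETS match (GGAAGT) 114 to 109 bases before its start, found in 19.7%. The posterior Hox motif TTTATGG, present in 2.43% of windows, was in none of the 7 members' windows. No motif searched was in all 3 windows shown, and a match describes letters only.

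**Figure D4:**
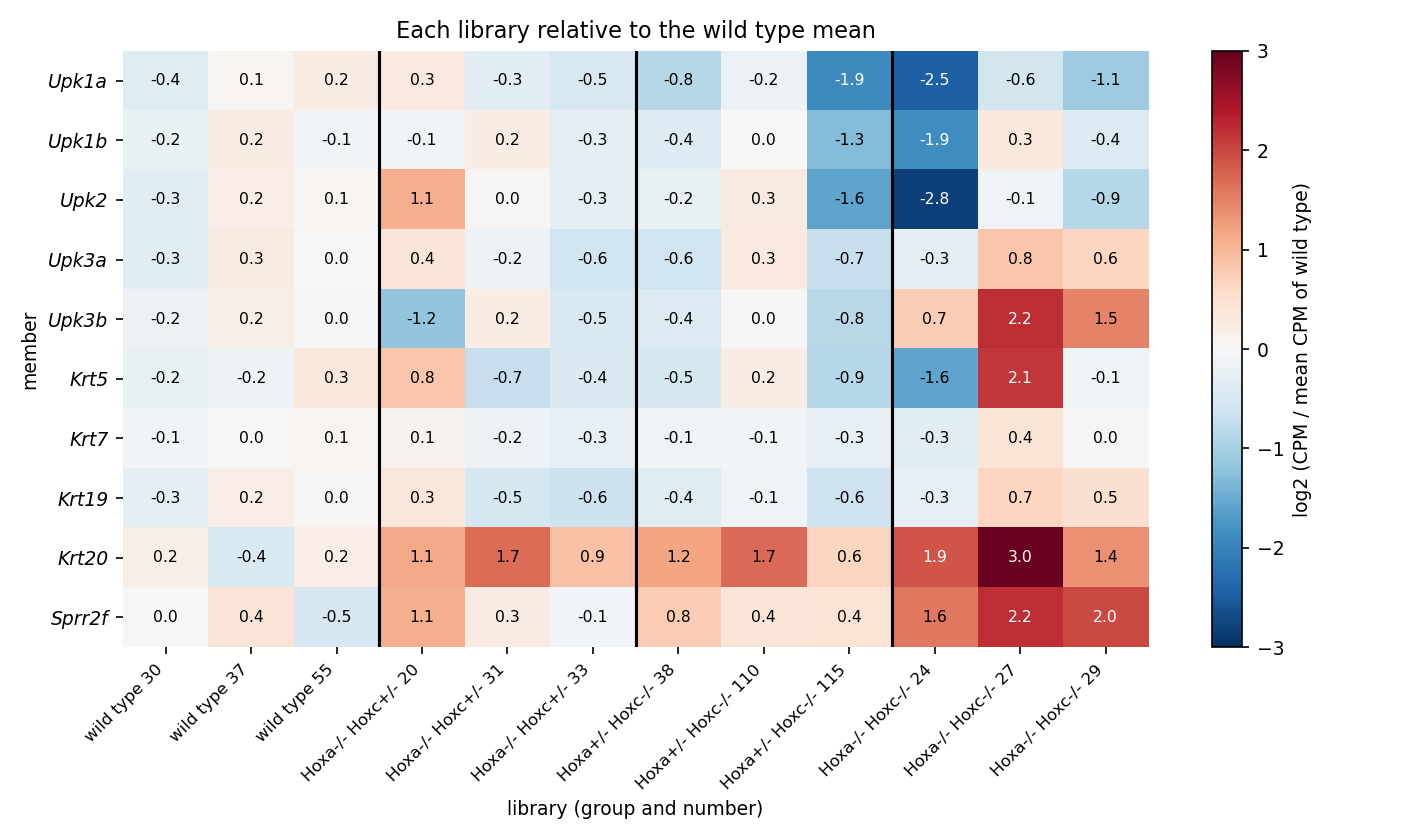
Colour and number give log2 of a library's CPM over the wild type mean for each member (rows) in each of the 12 libraries (columns), with black lines between genotypes. Krt20 is positive in all 9 mutant libraries, and Upk1a, Upk1b and Upk2 are lowest in Hoxa-/- Hoxc-/- 24.

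Single libraries set much of the spread. Within Hoxa-/- Hoxc-/-, library 27 was highest for all 10 members, and library 24 was lowest for 9 of 10 (all but Krt20). Within Hoxa+/- Hoxc-/-, library 110 was highest and AhCk_115 lowest for the same 9 members, all but Sprr2f. Within Hoxa-/- Hoxc+/-, library 20, which also stood apart in Hoxc10 and Hoxc9, was highest for 7 of 10. It was the lowest of the 12 for the kidney tubule genes Cdh16 (341 CPM, others at least 645), Slc34a1 (82.3 CPM, others at least 266) and Slc12a1 (265 CPM, others at least 466), and their part in its members' levels was not tested. Of the 2 Hoxc-/- groups, Krt20 thus departed from the common order in Hoxa-/- Hoxc-/- alone, and Sprr2f in Hoxa+/- Hoxc-/- alone.

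A profile of the plaque was made from the standardised log2 CPM of Upk1a, Upk1b, Upk2 and Upk3a, averaged in each library. It was lowest in Hoxa-/- Hoxc-/- 24 (-1.88) and Hoxa+/- Hoxc-/- library AhCk_115 (-1.39), and highest in Hoxa-/- Hoxc+/- 20 (0.92) and Hoxa-/- Hoxc-/- 27 (0.77). The likeness of 16229 genes to it is a description over 12 libraries that share genotypes and runs. Of the genes other than the members, Aldh3b2, an aldehyde dehydrogenase, followed the profile most closely. It had a Pearson r of 0.948, a Spearman rho of 0.895 and an r of 0.970 in the 9 libraries of the first run. Without the 2 libraries farthest from the median its r was 0.830. Sprr1a, another small proline-rich gene, had an r of 0.929, a rho of 0.881, an r of 0.920 in that run and 0.817 without those libraries. The next 8 genes were Cers3, Emx1, Sptssb, Gm13375, Sfn, Ccdc64b, Gm15663 and Psca, with r from 0.846 down to 0.816. Without the 2 farthest libraries, Cers3 dropped to 0.233, Ccdc64b to 0.223, Psca to 0.416 and Gm13375 to 0.488, so that their likeness rests on those libraries. Among the members outside the profile, Krt5 (r = 0.763), Krt7 (0.743) and Krt19 (0.568) had higher r values than Upk3b (0.102), Krt20 (-0.037) and Sprr2f (-0.083). These r values include the Hoxa-/- Hoxc-/- libraries, in which the last 3 members were called higher and of which library 24 was lowest in the profile, so they follow in part from the calls.

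Other urothelial genes were read as lists. Of 11 regulators of urothelial identity, 1 was lower and 0 higher in edgeR in Hoxa-/- Hoxc-/- than in wild type, with 6 at an unadjusted p below 0.05. Over all genes 7.4% passed as lower, 6.31% as higher and 32.4% at the unadjusted p, the shares to set beside this and the next lists. The 1 was Gata3, a transcription factor of the urothelium and collecting system, at 67.8, 77.4 and 83.5 CPM in wild type and 44.6, 46.5 and 54.8 CPM in Hoxa-/- Hoxc-/-, without overlap (log2 fold change -0.65, SE 0.110, adjusted p = 0.0113). The other 5 at an unadjusted p below 0.05 were Grhl3, lower (-0.75), and Klf5 (0.45), Pparg (0.58), Elf3 (0.28) and Ovol1 (0.27), whose double homozygous libraries were all above wild type. Of the list, 7 values were above 0 and 4 below, with a median log2 fold change of 0.11. Of 15 other urothelial and stratified epithelial genes, 12 were tested and 0 passed in edgeR, with 2 at an unadjusted p below 0.05, Krt8 (0.29) and Krt14 (-1.73), and a median of 0.03. Krt8 was the most abundant of these, from 211 to 330 CPM over the 12 libraries, and Sprr1b had at most 3 counts in any library. Psca was at 10.0, 10.7 and 10.4 CPM in wild type and at 0.603, 11.5 and 4.86 CPM in Hoxa-/- Hoxc-/-, lowest in library 24 as were Upk1a, Upk1b and Upk2. Of 12 collecting duct genes, Wnt9b alone passed, as lower (log2 fold change -0.61, adjusted p = 0.0277), with 2 at an unadjusted p below 0.05 and a median of -0.13. The most abundant of them, Tfcp2l1, ranged from 209 to 572 CPM over the 12 libraries.

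Markers of cells that neighbour the urothelium also differed in Hoxa-/- Hoxc-/-. Of 11 genes of ureteric mesenchyme and smooth muscle, which wrap the pelvis, 7 rose and 0 fell in edgeR, and the median log2 fold change was 0.55. Tbx18, a transcription factor of ureteric mesenchyme, was at 3.31, 2.38 and 2.43 CPM in wild type and at 7.23, 9.04 and 9.09 CPM in Hoxa-/- Hoxc-/- (log2 fold change 1.64, SE 0.192, adjusted p = 0.00394). The smooth muscle genes Actg2 (1.49), Myocd (0.79), Acta2 (0.56) and Myh11 (0.55) and the Hedgehog receptor Ptch1 (0.61) were among the others. The list summed to 739, 803 and 721 CPM in wild type and 1052, 1179.6 and 1026 CPM in Hoxa-/- Hoxc-/-, with Acta2 the most abundant gene. Their part in the members' results was not tested.

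Of 10 mesothelial genes, 8 were tested, 1 rose and 0 fell in edgeR, with 5 at an unadjusted p below 0.05 and a median log2 fold change of 0.51. The values were above 0 for 5 and below 0 for 3: Aldh1a2 (-0.43), whose double homozygous libraries were all below wild type, Wt1 (-0.32) and Rspo1 (-0.17). Wt1 is not confined to mesothelium, as the study used it to stain a glomerulus. Lrrn4, the 1 that rose, was at 0.556, 0.486 and 0.742 CPM in wild type and at 1.86, 8.40 and 3.60 CPM in Hoxa-/- Hoxc-/- (log2 fold change 2.95, SE 0.557, adjusted p = 0.0172). Its order within the double homozygous libraries, 27 over 29 over 24, was that of Upk3b and of most members. Msln, which encodes mesothelin, was at 3.13, 3.54 and 4.70 CPM in wild type and at 3.62, 10.9 and 8.10 CPM in Hoxa-/- Hoxc-/-, in the same order. Nkain4 had that order too, but other genes of the list did not. Library 27 was instead lowest for Aldh1a2, Wt1 and Rspo1, library 24 was highest for Cldn15, and library 29 was lowest for Gpm6a. Muc16 had 0 counts in the 9 libraries of the other genotypes, where 3 counts, the limit that a count of 0 allows for counting error only, come to 0.0744 CPM in wild type, and it was at 0.105, 0.230 and 0.192 CPM in Hoxa-/- Hoxc-/-. The list summed to 523, 580.4 and 585 CPM in wild type and 593, 451 and 539.5 CPM in Hoxa-/- Hoxc-/-, with Aldh1a2, which kidney stroma makes too, the most abundant gene. The part of mesothelium in the rise of Upk3b was not tested.

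**Figure D5:**
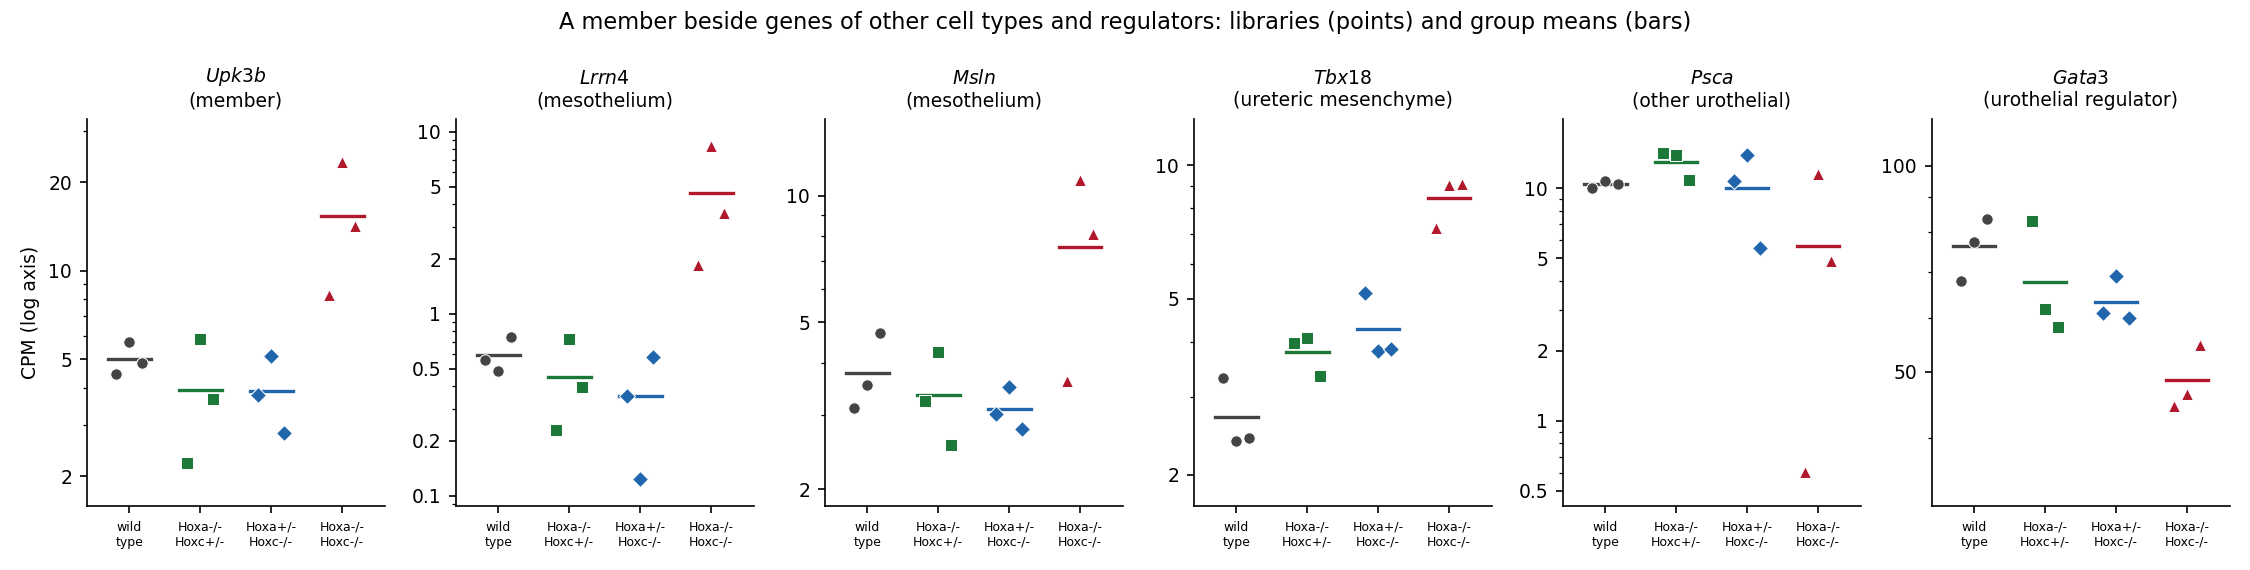
CPM on a log axis of Upk3b beside the mesothelial genes Lrrn4 and Msln, the ureteric mesenchyme gene Tbx18, and the urothelial genes Psca and Gata3, in each library (points) with group means of 3 libraries (bars). Upk3b, Lrrn4 and Tbx18 are higher in all 3 Hoxa-/- Hoxc-/- libraries than in any wild type library, Gata3 is lower, and Msln and Psca overlap.

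RNA of other sources moved as well. A nuclear list held 7 genes whose transcripts are kept in the nucleus wholly or in part. In edgeR all 7 were lower in Hoxa-/- Hoxc-/- than in wild type (median log2 fold change -1.31). The study had already listed Malat1, Ccnl1, Clk1, Ccnl2 and Leng8 as lower in its double homozygous mutants, so much of that count was known in advance. The 7 genes summed to 488, 512 and 596 CPM in wild type and 254, 270.3 and 237 CPM in Hoxa-/- Hoxc-/-. The largest differences were those of Neat1 (-2.35), Ccnl1 (-1.58), Malat1 (-1.58), Clk1 (-1.31), Ccnl2 (-1.19) and Leng8 (-1.06). Malat1 was at 106, 99.6 and 119 CPM in wild type and at 36.0, 44.3 and 28.5 CPM in Hoxa-/- Hoxc-/-. Of 6 liver genes 2 were higher, Alb (log2 fold change 3.40) and Ahsg (3.04), and the list summed to 2.86, 3.24 and 6.76 CPM in wild type and 19.4, 24.6 and 8.21 CPM in Hoxa-/- Hoxc-/-. That sum was 36.1, 30.7 and 4.29 CPM in Hoxa-/- Hoxc+/- and 14.4, 6.76 and 38.9 CPM in Hoxa+/- Hoxc-/-, with list medians of 2.20 and 1.85 on the log2 scale against wild type, beside 1.62 in Hoxa-/- Hoxc-/-. Of the epidermal, adrenal cortex and gonad genes, led by Krt10, Star and Ddx4, 0 passed in edgeR, with 1, the adrenal gene Cyp11a1 (1.42), at an unadjusted p below 0.05. The part of RNA quality, of neighbouring tissue or of sex in the members' results was not tested beyond the Xist covariate.

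In the comparisons with Hoxa-/- Hoxc+/- no gene of all those tested passed in edgeR, so the lists there are given by their medians and by counts at an unadjusted p below 0.05. Against wild type, all 7 genes of the nuclear list had log2 fold changes below 0 in Hoxa-/- Hoxc+/-. Their median was -0.44, with 4 of 7 at that p, beside 2.28% of all genes. They summed to 478 CPM in library 20 and to 338 and 382.5 CPM in libraries 31 and 33, against 488 to 596 CPM in wild type. Between Hoxa-/- Hoxc-/- and Hoxa-/- Hoxc+/-, where Sprr2f and Upk3b had an unadjusted p below 0.05, all 7 were lower in Hoxa-/- Hoxc-/-, with a median of -0.79 and 6 of 7 at that p, beside 11.3% of all genes. The mesothelial list there had 5 of 9 genes at that p and a median of 0.76, and Lrrn4 lay wholly above in Hoxa-/- Hoxc-/- (log2 fold change 3.33, SE 0.682, adjusted p = 0.196). In Hoxa-/- Hoxc+/- that list summed to 797 CPM in library 20 and to 563 and 541 CPM in libraries 31 and 33. The part of these in the members' values was not tested. In Hoxa+/- Hoxc-/- against wild type Sprr2a3 fell and Myocd rose (log2 fold change 0.99, adjusted p = 0.0216). Gata3 was at 83.0, 61.7 and 58.1 CPM in Hoxa-/- Hoxc+/- and at 61.0, 69.1 and 59.9 CPM in Hoxa+/- Hoxc-/-, overlapping wild type in both.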

How the data were processed

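RNA from E18.5 whole kidneys was sequenced as paired-end 75-base TruSeq libraries. The authors aligned reads to mm10 in Strand NGS, removed reads with more than 1 genomic position, and deposited expected counts per gene, of which 81.8% of the values above 0 are not whole. A second deposited table holds log2 values that the authors normalized, which entered limma 3.58.1 alone. Whether counting used strand is not given in the sources used here.

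Expected counts were rounded and tested in edgeR 4.0.16 (R 4.3.3) with the quasi-likelihood test, TMM factors and filterByExpr (minimum count 10, minimum total count 15), in fits of the 6 libraries compared. P-values were adjusted by Benjamini-Hochberg over all genes tested, with a threshold of 0.05. Deposited counts were turned into CPM with TMM factors. Exon lengths came from GENCODE release 21 for mouse, positions and upstream sequences from RefSeq (GRCm38.p6). Likeness used log2 CPM with a prior count of 0.5, and the 10 genes of highest r outside the members were named.

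Each result was recomputed with DESeq2 1.42.0, limma, RLE factors, scaling by library size and no filter. Further fits used all 12 libraries, the 9 libraries of the first run, an Xist covariate with all 12 libraries, and left out each library in turn. All 10 members were named; of other lists, the genes past the threshold, the most abundant gene and those at 0, at most 6 per list and comparison. Genes of these lists named outside that rule (Hoxa9, Hoxc9, Hoxa13, Cdx2, Sprr1b, Psca, Msln, Muc16, Wt1, Rspo1, Nkain4, Cldn15, Gpm6a, Grhl3, Klf5, Pparg, Elf3, Ovol1, Krt14, Cyp11a1, Slc34a1 and Slc12a1) were chosen after their values were seen. Members and lists were chosen with earlier results of these data known. The full result of a further gene list is not reported here.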

Additional observations from a re-analysis of the deposited data

How the results depend on the processing

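Of the members' log2 fold changes under the alternatives that leave out no library, 295 kept their direction and side of the threshold, 8 gained a call, 3 lost one and 4 reversed; with 1 library left out these counts were 218, 1, 4 and 17. The cause of these changes was not tested. No paired analysis was possible because the groups share no replicate numbers.

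In Hoxa-/- Hoxc-/- against wild type the 3 members called higher became 1 to 3 with 1 library left out. With all libraries of the comparison kept, Upk3b lost its call with Xist, with 9 libraries and with limma. The 0 called lower became 1 with DESeq2. The 2171 genes called became 3312 with DESeq2, 1190 with 12 libraries, 690 with 9, 1009 with Xist, 1215 with limma and 535 to 3386 with 1 library left out (535 without wild type 37, 633 without 55, 3386 without 30, 793 without double homozygous 24, 1101 without 27). Krt7 reversed with library size only (-0.016), and left-out libraries moved Krt7 from -0.18 to 0.21, Upk1b from -0.96 to 0.0072 and Krt5 from -0.68 to 1.39.

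The 0 genes called in Hoxa-/- Hoxc+/- against wild type became 18 with DESeq2, 2 with 12 libraries, 1 with limma and 0 to 8 with 1 library left out (8 without library 20, 0 in the other 5 fits). Krt5 reversed with library size only (-0.048), Xist (-0.084) and limma (-0.070). With 1 library left out Upk1a ran from -0.41 to 0.016, Upk1b from -0.17 to 0.11, Upk2 from -0.12 to 0.66, Upk3a from -0.36 to 0.13 and Krt5 from -0.56 to 0.34.

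In Hoxa-/- Hoxc-/- against Hoxa-/- Hoxc+/- the 0 members called higher became 2 with DESeq2, with 12 libraries and with Xist, and 0 to 1 with 1 library left out. The 0 genes called became 489 with DESeq2, 1 with no filter, 540 with 12 libraries, 181 with 9, 653 with Xist, 1 with limma and 0 to 687 with 1 library left out (687, and the 1 member, without Hoxa-/- Hoxc+/- 20, 0 in the other 5 fits). There Upk1b ran from -0.91 to 0.053, Krt5 from -0.72 to 1.47 and Krt7 from -0.060 to 0.32.

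In Hoxa+/- Hoxc-/- against wild type the 0 members called higher became 1 with DESeq2. The 376 genes called became 1284 with DESeq2, 149 with 12 libraries, 134 with Xist, 158 with limma and 60 to 549 with 1 library left out (60 without wild type 37, 70 without 55, 63 without 110, 99 without AhCk_115), and Upk2 ran from -0.75 to 0.065. The fit of 9 libraries does not hold this group. Krt20 and Krt5 rested on few counts, 35 to 51 for Krt20 per wild type library, which limits their precision.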
